A study of Mus musculus with 4 samples.

Results

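Peaks of open chromatin were described at 8 mouse genes of caveolae and fatty acid uptake, Cav1, Cav2, Cavin1, Cavin2, Cd36, Fabp4, Fabp5 and Pparg. A region belonged to a gene if it overlapped the gene span on mm10 or the 10 kb on either side, and peaks of different libraries that shared at least 1 bp were joined into 1 merged region. This gave 65 of the 113056 merged regions of the genome, at 8 of 21887 protein-coding genes. The assay was ATAC-seq, which uses a transposase to cut and tag accessible DNA, and the cells were lung endothelial cells purified by FACS. There were 2 libraries labelled as knockout (KO) of Dnmt3a, which encodes a de novo DNA methyltransferase, and 2 labelled as wild type (WT). The allele, any Cre driver, the strain, age and sex of the mice, and whether the libraries of 1 genotype came from separate mice, are not given in the sources used here, so every p-value measures the spread between these libraries, which may be technical. The data of each library were peak positions and widths, with no score or read count, so depth was unknown and the comparison asked which peaks were listed and how wide they were.

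Caveolae are small flask-shaped pits of the plasma membrane that are very abundant in lung endothelium. Caveolin-1 and caveolin-2 sit in the pit membrane and the cavins form a coat on it. CD36 binds long-chain fatty acids at the cell surface, the fatty acid binding proteins FABP4 and FABP5 carry them inside the cell, and PPARγ is a lipid-activated transcription factor that raises the expression of several of these genes in adipocytes and endothelium. Mouse Pparg is transcribed from more than 1 promoter, and the PPARγ2 form comes mainly from adipose tissue.

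The lists held 85091 and 100879 peaks in KO and 101442 and 97627 in WT on chromosomes 1 to 19, X and Y, and KO replicate 1 was the shortest list. KO replicate 2 had a peak in 0 of 4 Y-linked genes and was the only library with peaks at Xist (2), whereas KO replicate 1 had peaks in 4 of these Y genes and the WT libraries in 3 and 4. The KO libraries therefore differed from each other at sex-linked genes. All 10 pan-endothelial markers had, in every library, at least 1 peak no more than 1000 bp from an end of the gene or a RefSeq start. Because alveolar macrophages and adipocytes also use Pparg and Fabp4, their markers were counted. Of 9 alveolar macrophage markers 1 and 2 had such a peak in KO and 2 and 2 in WT (Itgax, with Krt79 where there were 2), and of 6 adipocyte markers 1 in every library (Plin1). The alveolar macrophage markers Marco, Siglecf, Chil3, Ear2, Mrc1, Adgre1 and Plet1 and the adipocyte markers Adipoq, Cidec, Lep, Retn and Adrb3 had none in any library. The share of all genes that meet this rule is not given here, so marker counts alone do not show which cells were present. Epithelial markers numbered 4 and 5 of 7 in KO and 5 and 5 in WT, fibroblast and mural markers 6 and 6 of 7 in KO and 6 and 5 in WT, and pan-leukocyte and lymphocyte markers 2 of 5 in every library; their part in the results was not tested.

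The RefSeq transcript starts available here numbered 10, for 6 of the 8 genes, with none for Fabp4 and Fabp5. Each had a 300 bp window from 250 bp before to 50 bp after the start on GRCm38.p6, the mm10 assembly. Windows of Cavin2, Cd36 and Pparg are printed 5′ to 3′ on the strand of the gene, with every CpG, the dinucleotide that DNMT3A methylates, in capitals. They span the range from few to many CpGs, and Pparg has an open start, a start covered in part and a start without a peak.
Cavin2 start 1 (chr1:51288876-51289175, plus strand): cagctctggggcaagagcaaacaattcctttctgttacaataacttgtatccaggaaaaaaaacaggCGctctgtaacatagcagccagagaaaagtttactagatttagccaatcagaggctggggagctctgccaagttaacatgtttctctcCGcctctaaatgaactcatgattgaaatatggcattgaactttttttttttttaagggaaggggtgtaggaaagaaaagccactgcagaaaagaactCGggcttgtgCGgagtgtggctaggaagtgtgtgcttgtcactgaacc
Cd36 start 1 (chr5:17835847-17836146, minus strand): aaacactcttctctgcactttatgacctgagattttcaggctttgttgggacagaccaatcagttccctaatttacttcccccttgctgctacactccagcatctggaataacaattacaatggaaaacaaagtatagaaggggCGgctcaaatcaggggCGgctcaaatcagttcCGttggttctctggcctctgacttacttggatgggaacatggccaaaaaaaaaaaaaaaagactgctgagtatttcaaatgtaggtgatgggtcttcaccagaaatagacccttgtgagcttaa
Pparg start 1 (chr6:115360894-115361193, plus strand): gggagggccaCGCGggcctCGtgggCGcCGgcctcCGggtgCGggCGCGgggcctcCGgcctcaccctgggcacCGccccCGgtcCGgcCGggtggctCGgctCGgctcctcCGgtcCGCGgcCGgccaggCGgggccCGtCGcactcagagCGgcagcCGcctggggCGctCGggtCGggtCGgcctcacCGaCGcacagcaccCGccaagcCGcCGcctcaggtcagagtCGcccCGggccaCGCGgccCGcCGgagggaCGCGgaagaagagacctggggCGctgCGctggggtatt
Pparg start 2 (chr6:115362099-115362398, plus strand): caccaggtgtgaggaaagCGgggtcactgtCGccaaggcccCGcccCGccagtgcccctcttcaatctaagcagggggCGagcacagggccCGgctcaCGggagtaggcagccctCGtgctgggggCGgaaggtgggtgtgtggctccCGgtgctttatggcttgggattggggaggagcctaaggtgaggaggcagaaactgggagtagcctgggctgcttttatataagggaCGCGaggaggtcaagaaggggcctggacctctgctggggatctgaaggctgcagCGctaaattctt
Pparg start 3 (chr6:115421816-115422115, plus strand): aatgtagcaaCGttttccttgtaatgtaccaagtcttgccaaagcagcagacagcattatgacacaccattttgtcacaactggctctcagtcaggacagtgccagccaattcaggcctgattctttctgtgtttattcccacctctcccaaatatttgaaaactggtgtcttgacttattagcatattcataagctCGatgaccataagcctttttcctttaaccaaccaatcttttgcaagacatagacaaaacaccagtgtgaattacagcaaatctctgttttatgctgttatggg

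Of the 10 start windows, 9 overlapped a peak in every library and 1, Pparg start 3, in none. Among the 9, Pparg start 2 was covered only in part, over 49 bases and 1 base in KO and 145 and 276 in WT. Peaks covered all 300 bases of the windows of Cav1 start 1, Cav2, both starts of Cavin1 (2 bp apart, so nearly the same window), Cavin2, Cd36 and Pparg start 1 in each library. The second Cav1 window was covered over 289 and 289 bases in KO and 300 and 300 in WT.

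Open starts were found at both ends of the CpG range. Pparg start 1 held 44 CpGs (GC content 80.3%), as many as or more than 98.1% of the 32817 start windows in the RefSeq table. Cavin2 held 4 CpGs and Cd36 held 3 (GC content 43.3% and 43.0%). Among all 12495 windows with 0 to 4 CpGs only 7.07% had a peak in all 4 lists, and 89.9% had a peak in none. Of the 3 low-CpG starts of these genes, those of Cavin2 and Cd36 were among the open 7.07%, and Pparg start 3, with 2 CpGs, was not. The remaining starts had 13 to 18 CpGs, a range in which 71.0% of all windows with 10 to 19 CpGs were called in every list.

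Short letter strings known from factor binding were searched on both strands, a palindrome being counted once. The GC box GGGCGG was present in 7 of the 10 windows (35.6% of all windows), the nuclear receptor letters AGGTCA in 3, at Cd36 and at Pparg starts 1 and 2 (16.3%), and 2 copies of AGGTCA 1 base apart, the arrangement that PPARγ binds with RXR, in 0 (0.0396%). The AP-1 letters TGANTCA lay in the Cav2 window alone (7.81% of all windows). TATAAA lay in 2 windows (13.6%) and CCACCC in 3 (31.5%), 2 of which were the overlapping Cavin1 windows. CCGGAA of ETS factors (14.9%), TGTTTAC of forkhead factors (3.65%) and AGATAA of GATA factors (11.2%) were in 0 of the 10.

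**Figure D1:**
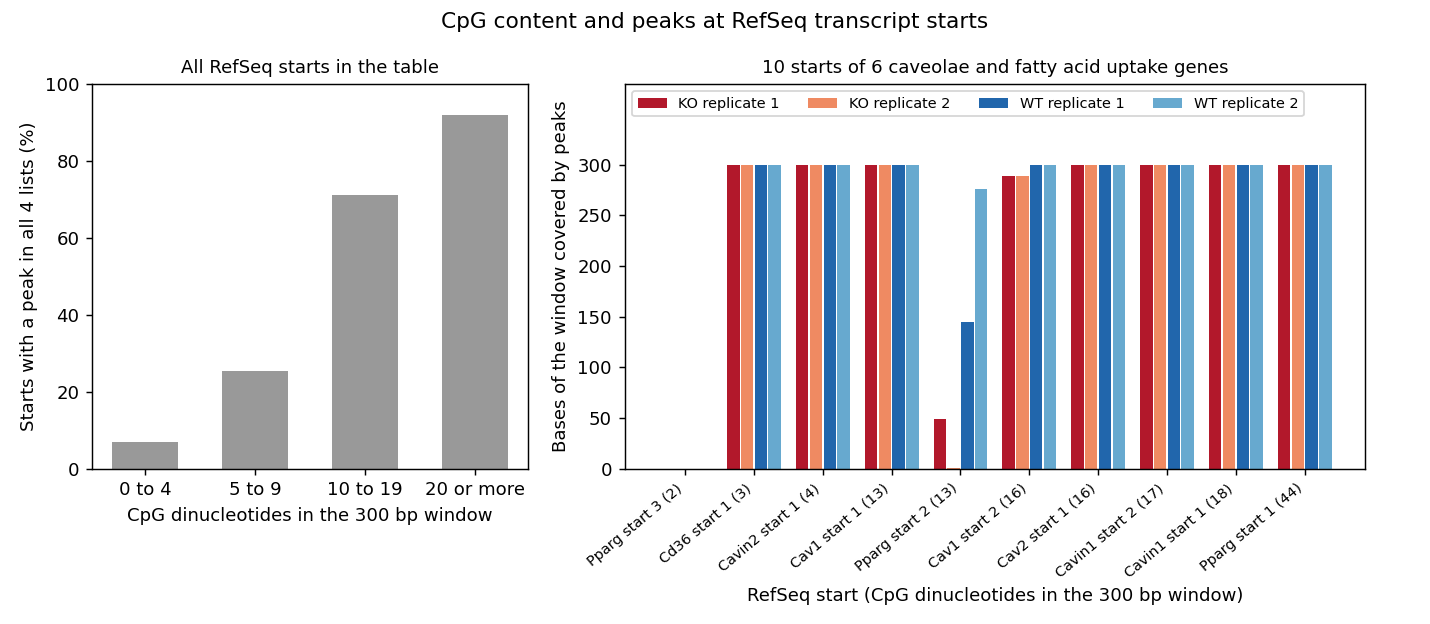
Left, the percentage of all RefSeq start windows with a peak in all 4 lists, by number of CpGs in the 300 bp window. Right, the bases of each of the 10 windows covered by peaks, 1 bar per library, in order of CpG number: 8 windows were covered over at least 289 bases in every library, Pparg start 2 in part, and Pparg start 3 not at all.

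Most regions at these genes were open in both genotypes. Of the 65 regions 44 (67.7%) were called in all 4 lists, against 66.7% of all merged regions and 68.0% of the 81710 merged regions in or near a protein-coding gene. A further 11 were missing from 1 list (16.9%, against 11.1% of all regions) and 9 were called in 1 list (13.8%, against 13.4%). Exactly 1 region was called in both KO and neither WT list (1.54%, against 1.12% of all regions and 1.11% of those near genes), at Pparg, and 0 had the opposite pattern (against 3.04% and 2.68%). These counts are small and lie near the shares over the whole genome.

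The unshared regions were spread unevenly over the libraries. KO replicate 1 alone lacked a peak in 7 regions (10.8%, against 7.59% of all regions), at Cav1, Cav2, Cd36 and Fabp4, and KO replicate 2 alone in 3 (4.62%, against 1.82%), at Cd36, Fabp5 and Pparg. WT replicate 1 alone lacked a peak in 0 regions (against 0.716%) and WT replicate 2 alone in 1 (1.54%, against 0.931%), at Fabp4. Both KO lists thus had more single gaps than either WT list, here as over all regions. Peaks listed in 1 library alone numbered 2 in KO replicate 1 (3.08%, against 1.92%), 1 in KO replicate 2 (1.54%, against 4.56%), 1 in WT replicate 1 (1.54%, against 4.34%) and 5 in WT replicate 2 (7.69%, against 2.55%). With 2 libraries against 2 no region can pass a test of presence. In sorted bulk cells, fewer cells with a region open and less opening per cell cannot be told apart.

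The 1 region listed in KO alone lay inside Pparg (gene identifier 19016, chromosome 6, 115360879 to 115490404), at 115420973 to 115421296. Its peaks were 242 and 324 bp wide in KO, and the nearest peak in a WT library lay 9097 bp away. It lay 770 bp before Pparg start 3 and ended 520 bp before the window printed above, which itself held no peak. Both peaks were narrow, at the 10.7 and 29.6 percentile of width in their own lists, and the region was lost when peaks narrower than the median of their own list were removed. It was retained with lists of equal length, a setting that left KO replicate 1, the shortest list, unchanged. The rule that absence requires no peak within 500 bp could not remove it, because the nearest WT peak was farther away.

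The main Pparg promoter was open throughout. Its peak ran over start 1 and towards start 2, with widths of 1317 and 1340 bp in KO and 1462 and 1569 bp in WT. Both KO peaks were thus narrower than both WT peaks, as at 27.1% of all regions called in every list. The difference lay at the end near start 2, where the peaks ended at 115362147 and 115362099 in KO and at 115362243 and 115362374 in WT. The same peak ends set the cover of the start 2 window, which is no separate result: 49 bases and 1 base in KO, against 145 and 276 in WT. Width at this region did not pass the test (log2 KO minus WT -0.16, SE 0.0986, limma adjusted p = 0.922).

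Pparg had 12 regions in all, 8 of them called in every list. Besides the KO region and a region missing from KO replicate 2, at 115432687 to 115433052 (258 bp in KO replicate 1; 222 and 366 bp in WT), 1 narrow region was listed in WT replicate 2 alone (214 bp) and 1 in KO replicate 2 alone (318 bp). Peaks in the Pparg window covered 5610 and 5590 bp in KO and 5616 and 6247 bp in WT. The log2 difference was 0.00 (SE 0.0824, limma adjusted p = 0.996). The shared region with the largest width difference after quantile normalization, at 115480231 to 115481091, had 498 and 778 bp in KO and 842 and 734 bp in WT, with overlap between genotypes.

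Cd36 (gene identifier 12491, chromosome 5, 17781690 to 17888959), the fatty acid receptor gene, had 15 regions, the largest number of the 8 genes, and 10 were called in every list. Its window was long, at 127270 bp, and held 1.18 regions per 10 kb, against 3.54 at Cavin1 and 0.803 at Pparg. The region over its only RefSeq start available here, at 17835669 to 17836810, was nearly the same width in each library, at 1072 and 1077 bp in KO and 1087 and 1096 bp in WT. Cd36 lies on the minus strand, and its span reaches upstream of this start, so starts not available here may lie there. Regions also lay upstream of this start, up to the high-coordinate end of the gene span. There the region at 17888581 to 17889117 had 537 and 417 bp in KO and 494 and 488 bp in WT.

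A pair of regions inside Cd36 was missing from KO replicate 1. The region at 17786164 to 17787076 had no peak in KO replicate 1 and 279 bp in KO replicate 2, against 490 and 862 bp in WT. The region at 17850398 to 17850929 had no peak in KO replicate 1 and 322 bp in KO replicate 2, against 453 and 528 bp in WT. In both, the KO replicate 2 peak was narrower than both WT peaks. That library also had the narrowest peak at 41.1% of all regions called in every list. With peaks under the median width removed both regions were called in the WT lists alone, but the share of all regions that did so is not given here. The shared region at 17821178 to 17821840 is named because its width difference after quantile normalization was the largest in the gene. It had 446 and 371 bp in KO and 628 and 430 bp in WT, with overlap between genotypes. Unlike the pair above, the region at 17898940 to 17899412, just inside the 10 kb limit, had 470 bp in KO replicate 1 and no peak in KO replicate 2, against 350 and 408 bp in WT. WT replicate 2 alone listed a peak of 259 bp inside the gene, at 17857808 to 17858066, and one of 201 bp beyond it, at 17893915 to 17894115. Over the Cd36 window peaks covered 5465 and 5675 bp in KO and 6669 and 7604 bp in WT. The genotypes did not overlap, but the share of all genes for which this holds is not given here. The log2 difference was -0.26 (SE 0.0933, limma adjusted p = 0.831 over 17255 genes), and Cd36 was among the 5.9% of genes with an unadjusted p under 0.05; after adjustment 0.0% passed. Without each library in turn the difference ran from -0.36 to -0.17.

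Fabp4 (gene identifier 11770, chromosome 3, 10204342 to 10208616), a fatty acid carrier gene used as a capillary endothelial marker, differed within the KO genotype. The region over its high-coordinate end, at 10208395 to 10208787, had no peak in KO replicate 1 and 360 bp in KO replicate 2, against 287 and 393 bp in WT. The region inside the gene, at 10205619 to 10206130, had no peak in KO replicate 1 and 463 bp in KO replicate 2, against 510 and 472 bp in WT. KO replicate 1 thus listed no peak inside the gene, while the other libraries listed at least 2. WT replicate 2 alone listed a further peak of 203 bp inside the gene, at 10204891 to 10205093.

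Regions outside Fabp4 were kept in KO replicate 1. The region at 10211436 to 10212071 had 456 and 562 bp in KO and 636 and 571 bp in WT, and the region at 10213665 to 10214134 had 397 and 459 bp in KO and 427 and 470 bp in WT. The region at 10210649 to 10210926 had 201 and 268 bp in KO, 264 bp in WT replicate 1 and no peak in WT replicate 2. Covered sequence came to 1054 and 2112 bp in KO and 2124 and 2109 bp in WT, with a log2 difference of -0.36 (SE 0.321, limma adjusted p = 0.831). The value rested on KO replicate 1: it was 0.08 without that library, and -1.17 over the gene span without flanks.

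Fabp5 (gene identifier 16592, chromosome 3, 10012585 to 10016610), the related carrier gene, had 3 regions. The region over its low-coordinate end, at 10012221 to 10013355, was 1 peak of 1038 bp in KO replicate 1 and 1 peak of 586 bp in KO replicate 2. In WT it was 2 peaks per library, of 643 and 300 bp in WT replicate 1 and of 637 and 230 bp in WT replicate 2. The second of these peaks, inside the gene, had no counterpart in KO replicate 2, while the broad peak of KO replicate 1 reached across it. Without KO replicate 1 that inner stretch, at 10013056 to 10013355, was called in the WT lists alone. The region at 10023569 to 10023950 had 201 bp in KO replicate 1 and no peak in KO replicate 2, against 281 and 280 bp in WT. Covered sequence was 1496 and 837 bp in KO and 1491 and 1430 bp in WT. The log2 difference was -0.24 (SE 0.26, limma adjusted p = 0.843), with a positive value of 0.11 without KO replicate 2.

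Cav1 (gene identifier 12389, chromosome 6, 17306335 to 17341328), which encodes the main caveolar membrane protein, had 9 regions, 5 of them in every list. The peak over start 1 was 824 and 731 bp wide in KO and 786 and 759 bp in WT, and that over start 2 was 524 and 542 bp in KO and 552 and 615 bp in WT. The genotypes overlapped in width at start 1. Both KO peaks were narrower at start 2, as at 27.1% of all regions called in every list. A region inside the gene at 17331642 to 17332008 had no peak in KO replicate 1 and 318 bp in KO replicate 2, against 367 and 276 bp in WT. The region at 17350633 to 17350949, 9305 bp beyond the gene, had no peak in KO replicate 1 and 245 bp in KO replicate 2, against 249 and 317 bp in WT. WT replicate 1 and WT replicate 2 each listed 1 further peak inside the gene, of 229 and 369 bp, that no other library had. The shared region at 17316758 to 17317418 had 639 and 607 bp in KO and 594 and 608 bp in WT. Covered sequence was 2994 and 3337 bp in KO and 3792 and 3945 bp in WT. The log2 difference of -0.20 did not pass the test (SE 0.0838, limma adjusted p = 0.831), and without each library in turn it ran from -0.27 to -0.12, the smallest being without KO replicate 1.

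Cav2 (gene identifier 12390, chromosome 6, 17281185 to 17289130), the neighbour of Cav1 and partner of its protein, had 4 regions, 3 of them in every list. Its start region, at 17280823 to 17282548, was the widest of all 65. It was 1 peak of 1652 bp in KO replicate 1 and was split in the other libraries, into 1149 and 334 bp in KO replicate 2, 1273 and 350 bp in WT replicate 1 and 1199 and 359 bp in WT replicate 2. The region at 17293260 to 17293718, between Cav2 and Cav1, had no peak in KO replicate 1 and 225 bp in KO replicate 2, against 452 and 376 bp in WT. Covered sequence was 2879 and 2703 bp in KO and 3052 and 2988 bp in WT. The region at 17273241 to 17273786, before the gene, had 505 and 300 bp in KO and 349 and 376 bp in WT. The log2 difference was -0.03 (SE 0.0688, limma adjusted p = 0.922).

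Cavin1 (gene identifier 19285, chromosome 11, 100956736 to 100970617), whose protein is needed to form caveolae, had 12 regions and 10 were called in every list. Its start region was 629 and 585 bp wide in KO and 614 and 639 bp in WT, and its widest region, at 100951811 to 100952643 beyond the other end of the gene, had 798 and 784 bp in KO and 833 and 807 bp in WT. The 2 regions that were not shared were narrow peaks of KO replicate 1 alone, of 225 bp inside the gene and 250 bp beyond it, and the second lay 173 bp from a WT peak. The region at 100957282 to 100957593, had 272 and 287 bp in KO and 294 and 270 bp in WT. Its log2 difference was the largest in the gene after quantile normalization (0.16, SE 0.092, limma adjusted p = 0.922) and was -0.01 without normalization. Covered sequence was 5546 and 4852 bp in KO and 5060 and 5076 bp in WT, so that both WT values lay between the KO values. The log2 difference was 0.11 (SE 0.09, limma adjusted p = 0.831), and it was 0.02 without KO replicate 1 and 0.20 without KO replicate 2.

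Cavin2 (gene identifier 20324, chromosome 1, 51289126 to 51302960), a coat protein gene, had 4 regions, all in every list, so that no region was missing from any library. The gene lies within the span of the long noncoding RNA gene 9330175M20Rik. The peak over its low-CpG start, at 51288652 to 51289893, was 1085 and 864 bp wide in KO and 1233 and 1187 bp in WT. The genotypes did not overlap, with both KO peaks narrower, as at 27.1% of all regions called in every list. The peaks had nearly the same start and differed at the end inside the gene (51289748 and 51289523 in KO, 51289893 and 51289838 in WT). The log2 difference in width was -0.30 (SE 0.11, limma adjusted p = 0.834). At 2 other Cavin2 regions both KO peaks were wider than both WT peaks, as at 7.37% of all regions called in every list. The region at 51299963 to 51300816 had 735 and 711 bp in KO and 627 and 676 bp in WT. The region at 51279256 to 51279591 had 299 and 258 bp in KO and 246 and 257 bp in WT, so that the replicate 2 widths were nearly equal. Covered sequence over the window was 2457 and 2100 bp in KO and 2413 and 2439 bp in WT (log2 difference -0.01, SE 0.0962, limma adjusted p = 0.989).

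**Figure D2:**
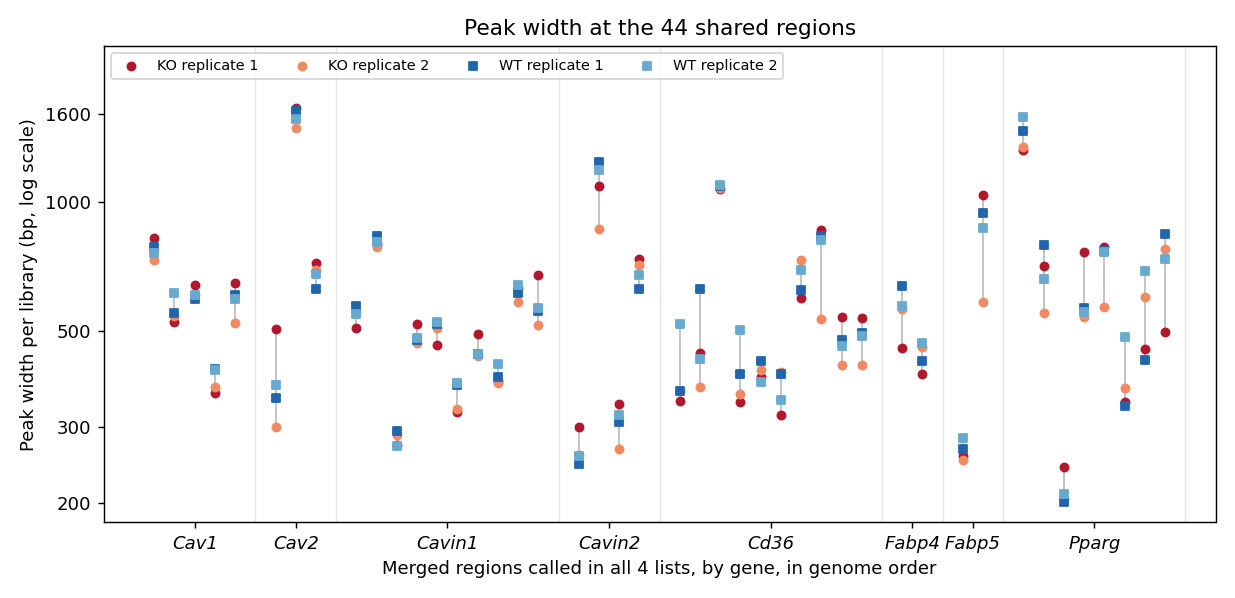
Peak width in bp on a log scale at the 44 regions called in all 4 lists, grouped by gene, with KO libraries as circles and WT libraries as squares joined by a grey line per region. The start regions of Cav2, Pparg, Cavin2 and Cd36 stand highest, and KO replicate 1 is the highest point of 19 lines and KO replicate 2 the lowest of 21.

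Over the 44 shared regions, KO replicate 1 had the widest peak in 19 and the narrowest in 14, and KO replicate 2 the widest in 2 and the narrowest in 21. The WT libraries had the widest peak in 10 and 13 and the narrowest in 7 and 2. Over all 75395 shared regions KO replicate 1 was widest in 33.0% and narrowest in 33.8%, KO replicate 2 in 13.5% and 41.1%, WT replicate 1 in 26.7% and 11.9%, and WT replicate 2 in 25.2% and 11.4%. Both KO peaks were narrower than both WT peaks in 12 of the 44 (27.3%, against 27.1% of all shared regions) and wider in 3 (6.82%, against 7.37%), all 3 at Cav2 and Cavin2. Raw width in these genes thus differed between genotypes about as often as at other shared regions.

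After quantile normalization of log2 width, the median difference over the 44 regions was -0.00203, with 23 below 0, and the median over all shared regions was 0.00926, with 47.0% below 0. In limma, 0 of 75395 regions passed an adjusted p of 0.05 (0.0%), and 6.03% had an unadjusted p under 0.05. None of the 44 regions (0) reached even the unadjusted threshold. Member differences ran from -0.30, at the Cavin2 start and inside Cd36, to 0.30, at the Cavin2 region 9535 bp before the gene. The value inside Cd36, at 17821178, was -0.02 without WT replicate 1 and -0.59 without WT replicate 2.

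**Figure D3:**
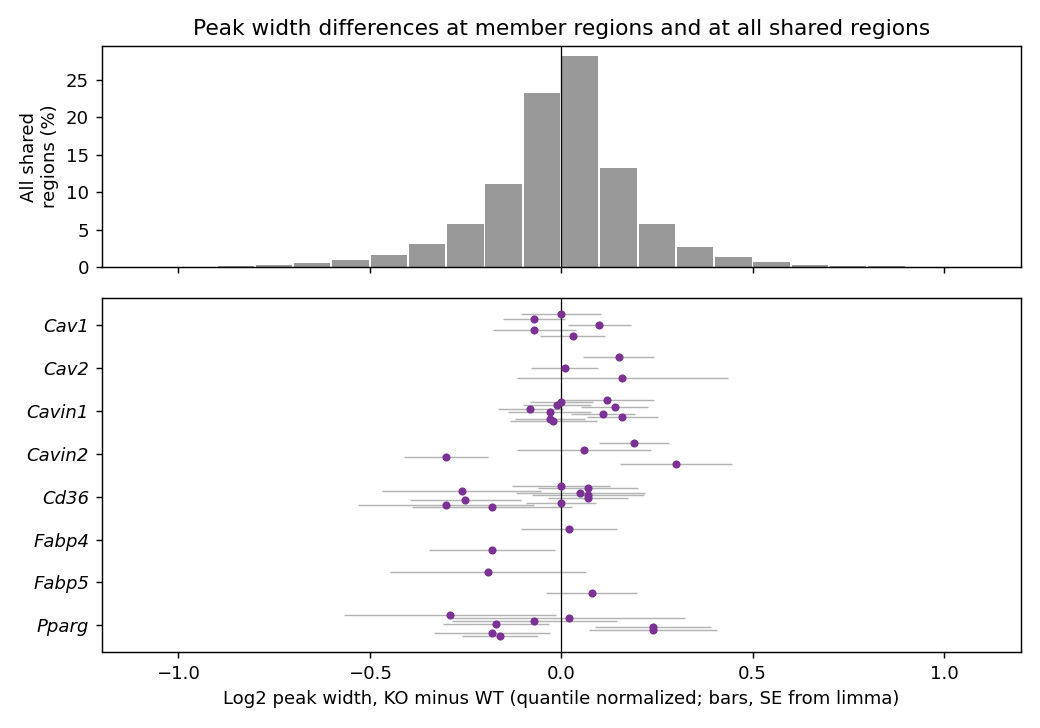
Log2 peak width, KO minus WT, after quantile normalization: above, the percentage of all 75395 shared regions per bin of 0.1; below, each of the 44 regions with its SE from limma. The 44 values lie between -0.30 and 0.30, and the histogram is centred near 0.

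Summed over the 8 windows, the lists held 52 and 55 peaks in KO and 57 and 61 in WT (53.5 ± 2.12 and 59.0 ± 2.83, SD, n = 2 each, exact two-sided permutation p = 0.333). They covered 27501 and 27206 bp in KO and 30217 and 31838 bp in WT (27353.5 ± 209 and 31027.5 ± 1150, SD, n = 2 each, exact two-sided permutation p = 0.333). Both sums were lower in each KO library than in each WT library, and 0.333 is the smallest p that this design allows. KO lists were also smaller as a whole, at 46.6 and 47.8 Mb covered against 51.1 and 50.5 Mb in WT. Relative to that, the 8 windows held 0.059% and 0.0569% of the covered sequence of the KO lists and 0.0591% and 0.0631% of that of the WT lists. Per 1000 listed peaks, 0.611 and 0.545 lay in the 8 windows in KO and 0.562 and 0.625 in WT, so that the genotypes overlapped in peak number once list length was allowed for.

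Per gene, covered sequence was tested on log2(covered bp + 200) with each library centred on its median gene. Of the 8 genes 0 passed the adjusted limma test, 1 (Cd36) had an unadjusted p under 0.05, and 6 had a negative difference. The median over the 8 was -0.11, against 0.02 over all 17255 genes tested, of which 44.7% were negative. Without centring, 7 of the 8 genes and 72.9% of all 17255 had a negative difference.

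**Figure D4:**
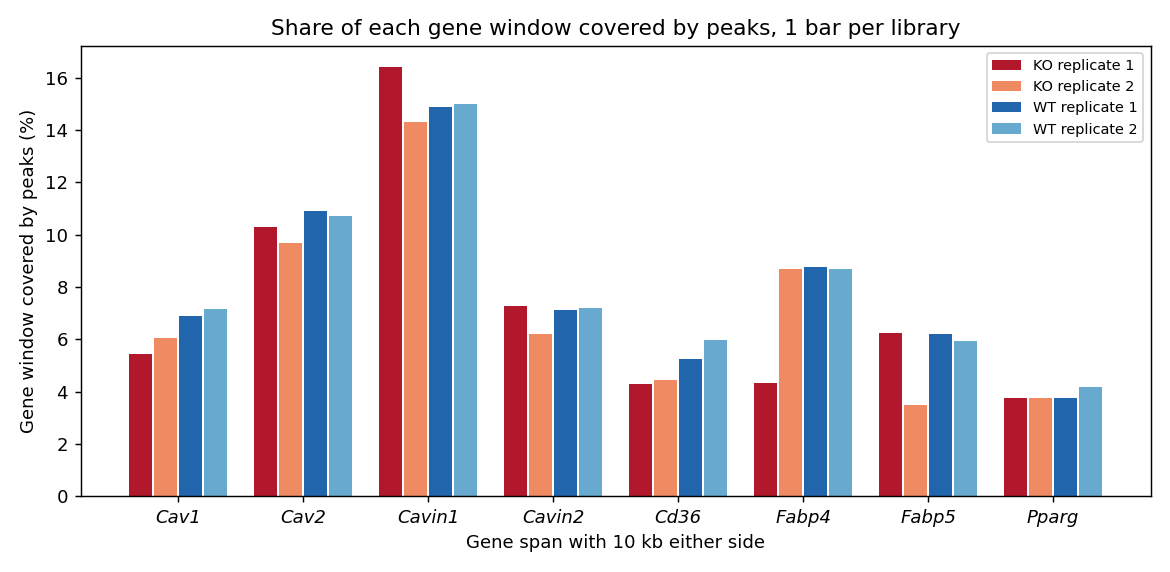
Percentage of each gene window (gene span with 10 kb either side) covered by peaks, 1 bar per library. Cavin1 stands highest and Pparg has the lowest mean, although the lowest single bar is Fabp5 in KO replicate 2. Both KO bars lie below both WT bars at Cav1, Cav2, Cd36 and, by a few bp, Pparg. The share of all genes with such bars is not given here, but without centring 72.9% of all genes tested had a negative log2 difference. At Fabp4 and at Fabp5, 1 KO bar stands apart.

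The share of a window under peaks compares the genes per length, although short genes have more flank in their window. Cavin1 was the most covered, with 15.3 ± 1.45% in KO and 15.0 ± 0.0334% in WT, followed by Cav2 with 9.99 ± 0.445% in KO and 10.8 ± 0.162% in WT (SD, n = 2 each). Over the 4 libraries Fabp4 had 7.62 ± 2.19%, Cavin2 6.95 ± 0.5%, Cav1 6.4 ± 0.789%, Fabp5 5.47 ± 1.33%, Cd36 4.99 ± 0.774% and Pparg 3.86 ± 0.215% (SD, n = 4). Cavin1 and Cav2 did not overlap with each other or with any other gene in library values. From Fabp4 to Cd36, each gene overlapped with the next in the order. Pparg lay below Cd36 in every library but overlapped with Fabp5, which had 3.48% in KO replicate 2.

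By Euclidean distance over log2(covered bp + 200) in the 4 libraries, the gene nearest to Cav1 was Mapk4 (distance 0.034), to Cav2 Slc25a24 (0.03), to Cavin1 Armc2 (0.032) and to Cavin2 Pak7 (0.034). Sparcl1 was nearest to Pparg (0.07). Efs was nearest to Fabp4 (0.11) and Trmt10a to Fabp5 (0.14). Efs was chosen for nearness over these values, so its low value in KO replicate 1 (1090 bp against 2011 bp in KO replicate 2) follows from that choice. The next nearest were Anks1b for Cav1 (0.057), Eif2d for Cav2 (0.034), Gtpbp3 for Cavin1 (0.038), Ubap2l for Cavin2 (0.054), Sdk1 for Cd36 (0.15), Cacna1s for Fabp4 (0.16), Spon2 for Fabp5 (0.14) and Ltbp4 for Pparg (0.071).

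Other genes of these pathways were described by the same measures, from 3 lists whose genes all matched. Caveolae machinery (12 genes, such as the EHD and pacsin genes that shape the caveolar neck) had 137 regions, 72.3% of them in every list, with 1 KO-only region, at Ror1, and 4 WT-only regions, at Ehd2, Ehd3, Pacsin2 and Ror1. Fatty acid uptake and handling (30 genes) had 161 regions, 75.8% in every list, with 1 KO-only region inside Lipe, the hormone-sensitive lipase gene (411 and 334 bp), and 1 WT-only region inside Fabp2 (225 and 260 bp). PPAR partners and relatives (16 genes) had 179 regions, 70.4% in every list, with 1 KO-only region, inside the corepressor gene Ncor1 (328 and 232 bp), and 5 WT-only regions, among them those at Ppara, Rxra, Rxrb and Ncoa1. The KO-only shares were 0.73%, 0.621% and 0.559% and the WT-only shares 2.92%, 0.621% and 2.79%, against 1.12% and 3.04% of all merged regions.

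None of these genes passed the adjusted limma test on covered sequence (0 higher, 0 lower), and those with an unadjusted p under 0.05 were Cav3, the muscle caveolin gene (log2 difference -0.23, limma adjusted p = 0.786), and Lipe (0.25, limma adjusted p = 0.793). The median log2 difference was -0.02 for caveolae machinery, 0.04 for fatty acid uptake and handling and 0.02 for PPAR partners, against 0.02 over all genes. Gpihbp1, which moves lipoprotein lipase across capillaries, had 5 regions and Plvap, which forms the caveolar diaphragm, had 11, all called in every list.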

How the data were processed

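The authors deposited 1 peak list per library, with chromosome, start, end and width in base pairs on mm10 and no score, per the file headers. The submitters' processing notes name cutadapt, Bowtie2 and Picard; the peak caller, its threshold and the read filters are not given in the sources used here. A region may lack a peak because it fell under the caller's threshold, so a gap in a list is no proof of closed DNA. Peaks on other sequences (92 and 134 in KO, 134 and 124 in WT) were left out. Gene spans, start windows and sequences came from RefSeq on GRCm38.p6 (start windows for 6 of the 8 genes); exons were not used. The members and lists were chosen with earlier results of these data known. The named genes were all 8 members, with every unshared region, the start region, the widest region and the shared region with the largest width difference of each, up to 5 genes with a genotype pattern per list, and the 2 nearest genes by distance; some genes that this rule names are not reported here. Width (quantile-normalized log2) and covered sequence (genes with a mean of at least 200 bp) were compared with limma 3.58.1 in R 4.3.3 with Benjamini-Hochberg adjustment over all features at 0.05; sums by exact permutation. The tests were run on simulated data: 86 of 100 width shifts and 97 of 100 covered-sequence shifts of 1 on the log2 scale were recovered, and 100 of 100 shifts of 2 for each, with 11 false calls among 75395 regions and 9 among 17255 genes. The simulated spread was equal for all features. In the data the SE of covered sequence ran from 0.0688 (Cav2) to 0.321 (Fabp4) among the members. Unequal spread lets limma pool less over features than in the simulation. Recovery in the data can therefore be lower than these counts for any feature, not only for those with a wide spread. Other steps used scipy 1.17.1, pandas 2.3.3, numpy 2.4.6 and matplotlib 3.10.9 under Python 3.11.15.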

Additional observations from a re-analysis of the deposited data

How the results depend on the processing

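Depth was unknown, so the lists limit what can be called absent. Without the peaks narrower than their list's median (used in place of a stricter score, as no score is given), the 8 genes had 0 KO-only, 2 WT-only (both Cd36) and 23 fully shared regions; with lists of equal length 2 KO-only (Fabp4, Pparg) and 1 WT-only (Cav2); with a flank of 25 kb 2 WT-only. Presence judged from 3 lists, each library left out in turn, gave 1 to 3 KO-only, 1 to 7 WT-only and 44 to 52 fully shared regions. A 50% overlap, a 500 bp gap for absence or no flank left 1 KO-only, 0 WT-only and 44 fully shared regions, except for the shared regions without flank (35). The shares over all regions under these other settings are not given here, so these counts cannot be set against the genome. The sums stayed lower in KO, by -7.5 to -3.5 peaks and -4484.5 to -2863.5 bp without each library and by -1 peak and -2640 bp with lists of equal length, where peak numbers overlapped (52 and 50 in KO, 50 and 54 in WT). No region passed the limma test on width in any version (0), with 2188 to 13882 at an unadjusted p under 0.05. For covered sequence 0 genes passed, except 4 with a pseudocount of 50 bp and 1 without the filter on low values; none was a member. Of 175 alternative values for the members, 0 passed the threshold and 17 changed sign. Width at the Cavin1 region at 100957282 turned to -0.01 without normalization. Covered sequence of Pparg turned to -0.01 with a pseudocount of 1000 bp, -0.08 without centring and -0.04 without flank, that of Cavin2 to 0.01 without the filter and 0.07 with 25 kb, and that of Cav2 to 0.11 without flank. Without each library the gene differences ran from -0.81 to 0.08 (Fabp4), -0.6 to 0.11 (Fabp5), -0.07 to 0.01 (Cav2), -0.11 to 0.1 (Cavin2) and -0.08 to 0.08 (Pparg), and widths from -0.53 to 0.15 (Fabp5 at 10012221), -0.38 to 0.00 (Fabp4 at 10211436), -0.2 to 0.55 (Cav2 at 17273241) and -0.66 to 0.08 (Pparg at 115480231); the cause was not tested.

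The labels do not say what same-numbered libraries share beyond the number. Their deviations correlated at -0.0449 for width and -0.117 for covered sequence, and with the replicate number as a block 0 regions and 0 genes passed (4394 and 808 at an unadjusted p under 0.05). The crossed pairing, chosen after seeing the data, also gave 0 and 0.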
